A study of Mus musculus with 14 samples.

Results

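Rod bipolar cells (RBCs) of the mouse retina are described here from snRNAseq of whole retinas, as the nuclei that carry the authors' cell type label RBC. The label covers 4036 of 77676 nuclei, and the cone bipolar label (CBC), the nearest other type, covers 9813. The retinas gave 12 libraries, of which 1 came from control mice and 11 came from conditional knockout (CKO) mice. CKO mice were *Cdh5CreER;Tgfbr1 CKO/-* (*VEcadCreER* in the labels), with 4-hydroxytamoxifen (4HT) given in the days from P3 to P5. The control is called wild type in its label and phenotypically wild type in the study's text, and no treatment is named for it. For controls in general the study's text names mice with *Tgfbr1 CKO/+* or *Tgfbr2 CKO/+* beside *Cdh5CreER* as typical, and the genotype of this library is not given. The study's text places the animals at P14, while the series record calls them young adults. The *Cdh5* promoter drives Cre in endothelial cells (ECs), a type absent from the 11 cell type labels, so *Tgfbr1* counts in these nuclei do not test the deletion. The null allele in *Tgfbr1 CKO/-* does not depend on Cre, so RBCs of CKO mice carry it as well. Its part in the genotype differences cannot be told apart from that of the loss in ECs. The number of mice behind each library is not given, and the p-values therefore measure spread between libraries.

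RBCs sit in the inner nuclear layer and receive glutamate from rods at their dendritic tips. Their receptor, mGluR6, inverts the sign of the signal: glutamate released in darkness drives a G protein cascade that closes the cation channel TRPM1, and light lets the channel open. The depolarized RBC then releases glutamate from ribbon synapses onto AII amacrine cells, which hand the rod signal to cone bipolar cells and so to ganglion cells.

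RBC nuclei were present in 11 of 12 libraries. The control held 572 of them, and the CKO libraries other than replicate 4 held from 160 (replicate 11) to 1003 (replicate 5). CKO replicate 4 held 104 nuclei in all, with 0 RBCs, 0 CBCs and 0 rods. The authors took whole clusters of nuclei out of replicates 4 and 5 by hand, so the 0 is no measure of how many RBCs the retina held. Replicate 4 entered only the comparison of shares of all nuclei. None of the 4036 RBC barcodes (0) occurred in more than 1 library, against 10 of the 77666 barcodes of all nuclei. UMIs summed over RBC nuclei came to 2092667 in the control and ranged from 703079 (replicate 2) to 4024412 (replicate 5) in the CKO libraries. The median UMI count per RBC nucleus was 3261 in the control, and its lowest, median and highest values over 10 CKO libraries were 1870, 3740 and 7869. The 4 CKO libraries made with the v5.0 kit (replicates 8 to 11) were the deepest, at 5563 to 7869, whereas the control and the other CKO libraries were made with the v4.0 PLUS kit. By the authors' batch labels, the control shares batch 1 with CKO replicates 1, 2 and 3, while replicates 4 and 5 form batch 2 and the other 6 form batch 3. By earlier results of these data, the batches were counted against different gene annotations. A gene at 0 throughout a batch may therefore be absent from its annotation. Within RBCs, 1166 of 11700 genes tested (9.97%) differed between kits at an adjusted p under 0.05 in edgeR, 590 (5.04%) higher and 576 (4.92%) lower with v5.0, and kit and batch were terms of the fits across genes unless stated otherwise.

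The 3 genes used here as markers of the type were checked first. *Trpm1* and *Grm6* also stand in the list of ON bipolar markers, so they are not particular to RBCs. *Prkca* encodes protein kinase C alpha, the classical antibody marker of RBCs. It was at 18709 CPM in the control, where CPM is the usual depth-scaled count, here relative to all UMIs of a library's RBC nuclei, and its lowest, median and highest CKO values were 8614 (replicate 11), 16078 and 18654 CPM. All 10 CKO libraries were below the control, and the v5.0 libraries, at 8614 to 10105 CPM, lay below all v4.0 PLUS CKO libraries, at 15644 to 18654 CPM. *Trpm1*, the gene of the transduction channel, was at 8422 CPM in the control and at 5154, 7806 and 9454 CPM as the lowest, median and highest CKO values. *Grm6*, which encodes mGluR6, was at 792 CPM in the control and at 654, 901 and 1000 CPM. Control values of *Trpm1* and *Grm6* lay inside the CKO range, with 3 and 7 of 10 CKO libraries above the control. With kit and batch in the model, which leaves CKO replicates 1 to 3 to set the effect, the log2 fold changes of CKO over control were -0.20 for *Prkca*, -0.09 for *Trpm1* and 0.06 for *Grm6*, and none passed the threshold (adjusted p 0.968, 1 and 1, edgeR).

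The same genes were far lower in the neighboring types. The mean log2 ratio of RBC over CBC levels was 3.51 ± 0.37 (SD, n = 11 libraries) for *Prkca*, 2.80 ± 0.25 for *Trpm1* and 1.56 ± 0.14 for *Grm6*, and all 11 libraries were on the RBC side for each. The labels come from clusters of the same nuclei, so these ratios are a description and have no test. To compare detection at equal depth, nuclei were thinned to 500 UMIs, and those with fewer were left out (105 of 4036 RBC nuclei). In the control this left 564 of 572 RBC, 1274 of 1301 CBC and 5760 of 6621 rod nuclei. *Prkca* was then found in 98.9% of these control RBC nuclei and in 96.9% to 100% by CKO library, compared with 20.9% of control CBC nuclei and 43.0% of control rod nuclei. *Trpm1* was found in 97.3% of control RBC nuclei, 27.6% of CBC nuclei and 0.0174% of rod nuclei. *Grm6* was found in 34.8%, 11.3% and 0.0174%. *Prkca* UMIs are thus frequent in rod nuclei while *Trpm1* and *Grm6* UMIs are near 0 there. Without thinning, 4035 of 4036 RBC nuclei held a UMI of at least 1 of the 3 genes, compared with 78.9% of CBC nuclei and 67.0% of rod nuclei, at median depths of 3390, 3496 and 1064 UMIs.

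**Figure D1:**
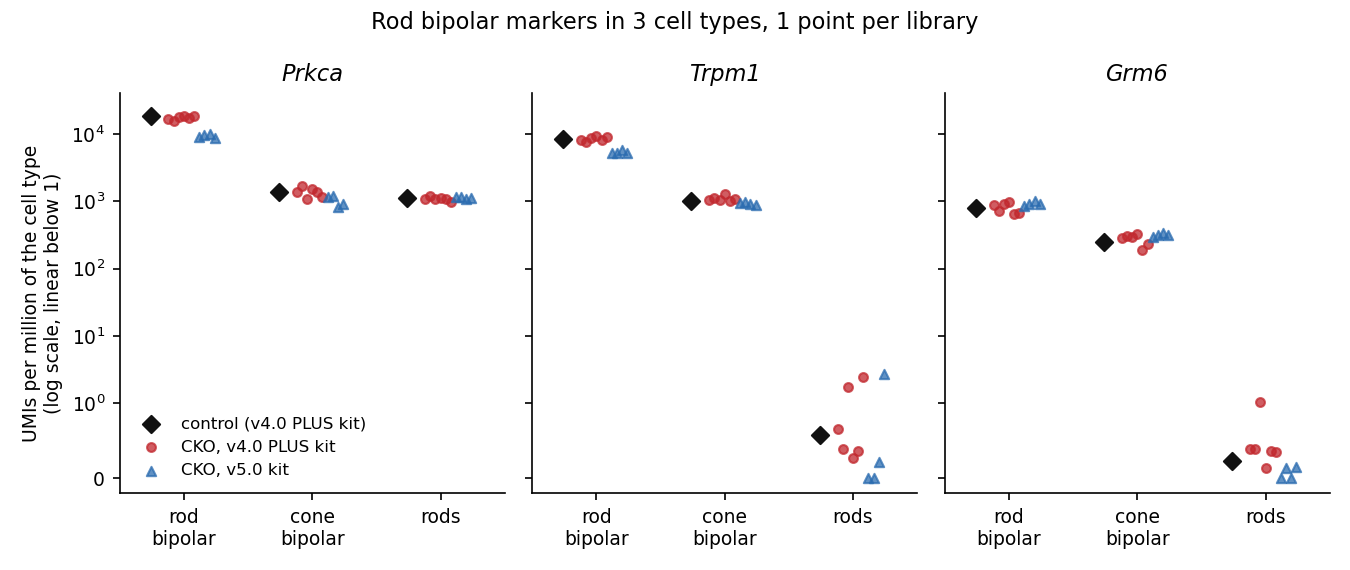
Levels of *Prkca*, *Trpm1* and *Grm6* (CPM of the cell type, log axis that is linear below 1) in rod bipolar, cone bipolar and rod nuclei, with 1 point per library by genotype and kit. All 3 genes were highest in rod bipolar nuclei, and the v5.0 libraries held less *Prkca* and *Trpm1* there than the v4.0 PLUS libraries.

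The mGluR6 cascade was then followed from the G protein to the scaffold. *Gnao1*, the alpha subunit that the receptor activates, was at 1212 CPM in control RBCs and at 1241, 1337 and 1688 CPM as the lowest, median and highest CKO values. *Gnb3*, the beta subunit, was at 612 CPM in the control and at 523, 687 and 1054 CPM, and *Gng13*, the gamma subunit, was at 117 CPM and at 23.8, 61.3 and 110 CPM. The control was below all 10 CKO libraries for *Gnao1* and above all 10 for *Gng13*, with log2 fold changes of 0.02 ± 0.13 (SE) and -0.43 ± 0.31 that did not pass. *Rgs7* and *Rgs11* encode the GTPase activators that switch the G protein off. *Rgs7* was at 3317 CPM in the control and at 2738, 3116 and 3646 CPM, and *Rgs11* was at 115 CPM and at 132, 183 and 241 CPM. The *Rgs11* values of all 10 CKO libraries lay above the control, with a log2 fold change of 0.69 ± 0.23 and an adjusted p of 0.621 (unadjusted 0.00736). In CBC nuclei the log2 fold change of *Rgs11* was 0.74, and the test of the difference between the types gave an adjusted p of 1. *Gpr179*, the orphan receptor that holds the RGS proteins at the dendritic tip, was at 539 CPM and at 484, 592 and 780 CPM.

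Over the 15 cascade genes, 15 were tested and 0 passed the threshold in edgeR or DESeq2. Of all 11700 genes, 0.0171% (2 genes) passed in edgeR and 0.179% (21 genes) in DESeq2. At an unadjusted p under 0.05 in edgeR, 1 of 15 was higher and 0 lower, 6.67% against 5.33% of all genes. The median log2 fold change was 0.00 over the cascade and 0.00 over all genes tested. The control lay below all CKO libraries for 3 of the 15 (*Gnao1*, *Rgs11*, *Lrit3*), against 7.29% of all genes, and above all of them for *Gng13* and *Prkca*, against 4.28%. Between the RBC and CBC labels the cascade differed widely. The CBC label is not divided into ON and other cone bipolar cells, so its levels average over all of them. Of thinned control CBC nuclei, 27.6% held *Trpm1* and 11.3% held *Grm6*. The part of this mix in the ratios was not tested. Its summed level was 30370 CPM on average in RBCs and 5144 CPM in CBCs, and without *Prkca* and *Trpm1*, which carry most of the RBC sum, it was 8414 and 2860 CPM. The mean log2 ratio of RBC over CBC levels was 2.97 for *Pcp2*, which encodes a modulator of the alpha subunit, 2.15 for both *Rgs7* and *Gng13*, 1.86 for *Gpr179*, 1.57 for *Gnao1*, 0.85 for *Gnb3* and 0.73 for *Rgs11*. It was -0.18 ± 0.41 for *Nyx* and -0.22 ± 0.26 for *Lrit3*, the genes of the leucine-rich repeat proteins that place the channel. For both, the SD over libraries was larger than the distance of the mean from 0, and the difference was not tested. Some cascade genes were higher in photoreceptors than in RBCs. *Gnb5*, the partner of the RGS proteins, averaged 361 CPM in RBCs and 1023 CPM in rods, and its anchor *Rgs9bp* averaged 56.4 and 143 CPM. *Gnb3* averaged 731 CPM in RBCs and 1068 CPM in cones, and *Lrit3* 26.7 and 260 CPM.

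RBCs and CBCs were next compared across all genes with at least 50 CPM in either type, of which there were 3820. The mean log2 ratio over libraries was 1 or more for 246 genes and -1 or less for 340, so the genes that set the types apart were more often those low in RBCs. At 3 or more and at -3 or less the counts were 39 and 178. The 15 highest ratios ran from 3.51 to 3.89. They belonged to *Asic2*, an acid-sensing ion channel (3.89 ± 0.30), *Ano4* and *Ano3* of the anoctamin family (3.88 ± 0.30 and 3.62 ± 0.34), *Il1rap*, a subunit of the interleukin-1 receptor (3.82 ± 0.27), *Adamts5*, a matrix protease (3.81 ± 0.34), *Lrrtm4*, a synaptic adhesion protein (3.77 ± 0.31), *Mtmr10*, *Tanc1*, *Bend4*, *Prkca*, *Vstm2b* and the unnamed transcripts *Gm35217*, *Gm30725*, *A230077H06Rik* and *9330154J02Rik*. All of these were higher in RBCs in 11 of 11 libraries. *Asic2* was at 7386 CPM in control RBCs and at 4004, 5854 and 7487 CPM as the lowest, median and highest CKO values, and *Lrrtm4* was at 6715 CPM and at 4454, 5913 and 9098 CPM. Control values of both genes lay within the CKO range in RBCs, and their control CBC values were 403 and 456 CPM.

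The 15 lowest ratios ran from -9.90 to -7.55. These genes had few or no UMIs in RBCs, so their ratios and order depend on the 0.5 UMIs added to each count and on depth, and they show only that the genes were near 0 in RBCs. They were *Nxph1*, a secreted ligand of neurexins (-9.90 ± 2.00), the cadherins *Cdh8* and *Cdh9* (-8.36 ± 1.39 and -7.98 ± 2.05), the immunoglobulin adhesion genes *Kirrel3* and *Ncam2*, the kainate receptor partner *Neto1*, the muscarinic receptors *Chrm3* and *Chrm2*, the atypical cadherins *Fat3* and *Fat4*, and *Galntl6*, *Adcy8*, *Lrrtm3*, *Plxna4* and *Cntnap5a*. *Nxph1* averaged 2.08 CPM in RBCs and 962 CPM in CBCs, and *Cdh8* averaged 5.19 and 1214 CPM. The pair of *Lrrtm* genes was thus split between the types, with *Lrrtm4* on the RBC side and *Lrrtm3* (-7.74 ± 2.00) on the CBC side. In the difference of genotype effects between the types, described further on, *Chrm3* is the gene of these 30 that passed.

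**Figure D2:**
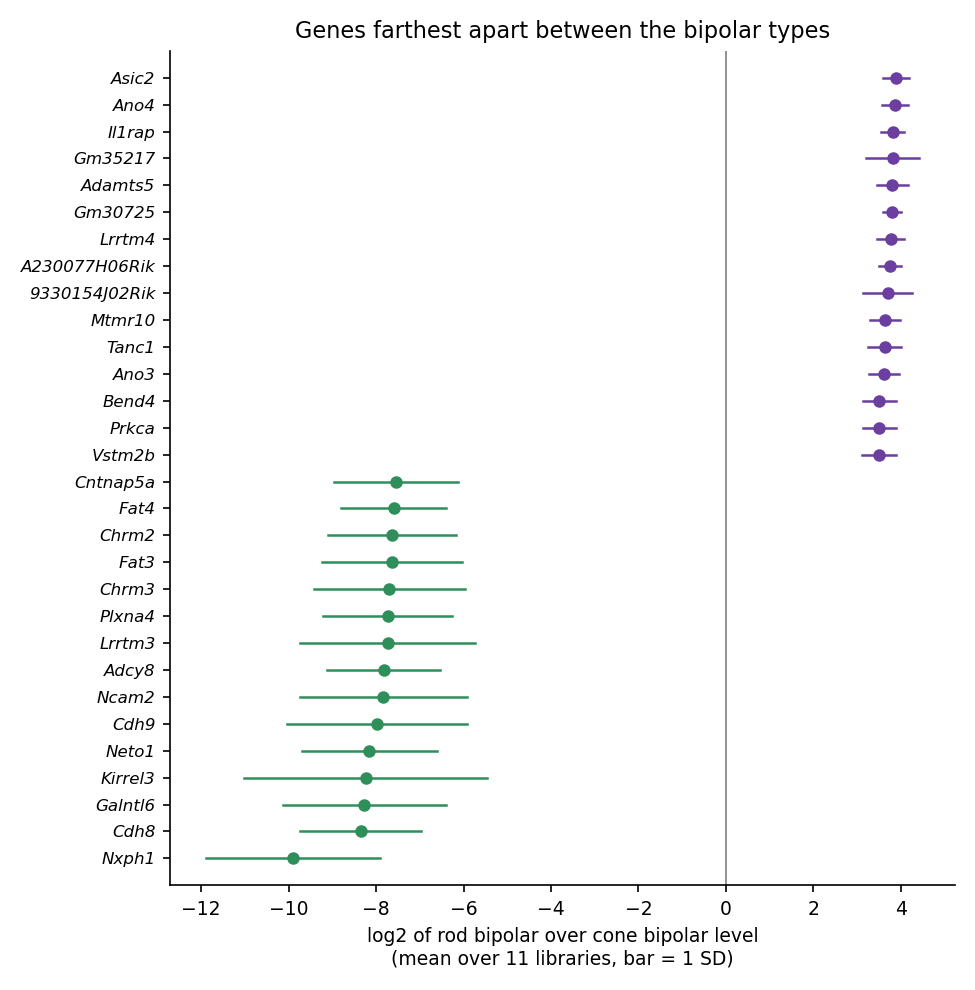
Mean log2 ratio of rod bipolar over cone bipolar levels, with bars of 1 SD over 11 libraries, for the 15 highest and 15 lowest of 3820 genes. The highest ratios lie between 3.51 and 3.89 with small spread, and the lowest lie between -9.90 and -7.55, where the size depends on the 0.5 UMIs added.

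Transcription factors and synapse genes were also compared between the bipolar types. *Otx2* and *Crx*, the homeobox factors of photoreceptors and bipolar cells, had RBC over CBC log2 ratios of -0.09 and 0.01. *Isl1*, a factor of ON bipolar cells, had 1.74, *Prdm8* had 2.00 and *Sebox* 3.28. *Vsx1* was the reverse at -4.94, as were *Nfia* at -5.58 and *Nfib* at -6.16. Of the ribbon synapse list, the summed level was 16672 CPM in RBCs and 15744 CPM in CBCs. The other cell types ranged from 4900 CPM (astrocytes) to 20503 CPM (rods) for this list. *Syt1*, *Snap25* and *Rims2*, its most abundant members, had ratios of -0.17, 0.95 and -0.13. Of the inhibitory receptors, the rho subunit genes *Gabrr1* and *Gabrr2* had ratios of 0.78 and 0.12 while *Gabrr3* had -6.76. In RBCs, the genotype comparison gave 0 of 16 tested transcription factors past the threshold (3, or 18.8%, at an unadjusted p under 0.05), 0 of 25 ribbon synapse genes (2, or 8%) and 0 of 15 inhibitory receptor genes (1, or 6.67%), by edgeR and by DESeq2, against 5.33% of all genes at that p, with median log2 fold changes of -0.14, 0.04 and 0.00.

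The 3397 genes of at least 50 CPM in RBCs were then compared with every other cell type of at least 500 nuclei. Among these genes, those with the largest fold of RBCs over the next type were *Gm30725* (13.8-fold over CBCs), *Mtmr10* (12.2), *A230077H06Rik*, *9330154J02Rik* (11.9), *Prkca* (11.7), *Gm35217* (11.1), *Gm534* (9.17), *Il1rap* (9.07), *Car8* (8.81), a carbonic anhydrase-related gene, and *Slco5a1* (8.78), of a transporter family. *Asic2* is absent from this ranking because glycine amacrine cells held more of it, 6567 CPM on average against 5825 CPM in RBCs. *Mtmr10* was at 993 CPM in control RBCs and at 825, 992 and 1123 CPM as the lowest, median and highest CKO values. *Car8* was at 841 CPM and at 680, 879 and 1029 CPM, and for both genes the control lay inside the CKO range. By UMI count, which is not corrected for gene length, the 10 leading genes took 10.7% of RBC UMIs: *Malat1*, *Nrxn3*, *Prkca*, *Trpm1*, *Dlg2*, *Gpc6*, *Zbtb20*, *Lrrtm4*, *Asic2* and *Mdga2*. *Prkca* and *Trpm1* alone took 1.46% and 0.735%. *Malat1* was the leading gene at a mean of 32064 CPM, with 45456 CPM in the control and 10833 to 59775 CPM in the CKO libraries.

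Promoters were read for the genes of these groups, together with *Tgfbr1* and *Grm6*, because OTX2 and CRX act in bipolar cells through a known core motif. RefSeq promoters (300 bases, GRCm38.p6) were given for 16 of 21 genes, 25 promoters in all. The OTX2 and CRX core TAATCC occurred on either strand in 2 of the 25 (8%), those of *Trpm1* and *Tgfbr1*, against 7.06% of 32851 promoters. The E-box CATATG, which reads the same on both strands, occurred in 1 (4%), of *Nrxn3*, against 3.91%. *Trpm1* has 2 promoters in the set, and that at chr7:64185209-64185508 lacks the motif. The promoter at chr7:64153585-64153884 (GRCm38.p6, plus strand) is shown because it is of an RBC marker and holds the motif, with GGATTA, its reverse complement, in capitals. A match is a description of these letters and no evidence of binding.
*Trpm1*: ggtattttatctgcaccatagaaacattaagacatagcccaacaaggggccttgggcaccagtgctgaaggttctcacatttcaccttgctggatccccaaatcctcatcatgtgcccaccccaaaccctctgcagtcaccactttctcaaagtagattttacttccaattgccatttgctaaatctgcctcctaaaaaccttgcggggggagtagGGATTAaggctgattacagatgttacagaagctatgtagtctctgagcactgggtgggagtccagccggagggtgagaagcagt

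The share of RBCs among nuclei addressed whether the type was lost or gained. RBCs made up 4.97% of control nuclei (exact binomial 95% interval 4.58% to 5.38%) and 4.69% ± 1.62 (SD, n = 11) of CKO nuclei, with a lowest, median and highest value of 0%, 5.32% and 5.85%. The control lay within this range, and 7 of 11 CKO libraries were above it. The two-sided exact permutation test over libraries gave p = 0.833, where the smallest p possible is 0.0833. The value of 0% is that of CKO replicate 4, from which clusters had been removed, and without it the CKO mean was 5.16% ± 0.470 and the difference from the control turned from -0.276 to 0.193 percentage points. Within batch 1 the CKO mean was 5.07% ± 0.294 (n = 3), 0.0973 percentage points above the control. The difference was -1.22 percentage points among nuclei with at least 1000 UMIs and -1.75 among nuclei other than rods with replicate 4 included. The values without replicate 4, an alternative chosen after seeing the data, were -0.638 and -0.755. Among bipolar nuclei, RBCs made up 30.5% in the control (28.5% to 32.7%) and 28.8% ± 2.01 (n = 10) in the CKO libraries, with a lowest, median and highest value of 26.9%, 27.8% and 32.8%. The control again lay within the range, with 2 of 10 CKO libraries above it (exact permutation p = 0.545, two-sided, smallest possible 0.0909), and within batch 1 the 3 CKO libraries, at 26.9% to 28.7%, were all below it. A gain or loss of RBCs was not detectable with 1 control library.

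The comparison of genotypes across genes asked what RBCs express differently in retinas of CKO mice. Because batch is a term and the control is in batch 1, each fold change is that of CKO replicates 1 to 3 over the control, and CKO libraries of the other batches add nothing to the effect. The 6 of batch 3 add to the estimate of spread, which replicate 5, alone in its batch, does not. With 1 control library, what sets that library apart and what the genotype does cannot be told apart, in this comparison, in the gene lists and in the difference from CBCs alike. Counts of CKO libraries above or below the control are of levels without the model's terms, and so mix kits and the gene annotations of the batches. Of 11700 genes tested, 2 passed the threshold of an adjusted p under 0.05 in edgeR (0.0171%), 1 higher and 1 lower in CKO RBCs (0.00855% each). At an unadjusted p under 0.05 there were 624 genes (5.33%), 416 higher (3.56%) and 208 lower (1.78%). DESeq2 called 21 genes (0.179%), 20 higher (0.171%) and 1 lower (0.00855%), with 348 (2.97%) at an unadjusted p under 0.05, 283 higher (2.42%) and 65 lower (0.556%). In batch 1 alone, edgeR called 16 genes. The count of 2 rests on single libraries. It was 0 without CKO replicate 8, 9 or 11, and it was 5, 7, 13, 13 and 11 without replicates 1, 3, 6, 7 and 10. Thinned to 500 UMIs per nucleus it was 4, none of them (0) shared with the 2. It was also 0 with kit alone, batch alone or no covariate in the model.

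*Lrrc4c* encodes netrin-G ligand 1, a synaptic adhesion protein, and lies at chr2:96148514-97462016 (GRCm39). It was at 16.2 CPM in control RBCs (34 UMIs), at 58.3, 64.0 and 88.5 CPM in CKO replicates 1 to 3 of the same batch, at 23.4, 15.1 and 24.9 CPM in replicates 5 to 7, and at 59.9 to 74.3 CPM in replicates 8 to 11. Replicates 5 to 7 were near the control and the other CKO libraries well above it, so that 9 of 10 CKO libraries were higher. The log2 fold change was 2.05 ± 0.32 (SE), with an adjusted p of 0.0457, which ranged from 1.27e-06 to 1 over 24 alternatives (16 past the threshold). Without CKO replicate 8, 9 or 11 the adjusted p was 0.132, 0.125 or 0.0931. In CBC nuclei, where *Lrrc4c* was at 1284 CPM in the control and had a CKO median of 1207 CPM, the log2 fold change was -0.08.

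*Tafa2* encodes a secreted chemokine-like protein of neurons and lies at chr10:123099901-123577979 (GRCm39). Control RBCs held 98 UMIs in 87 of 572 nuclei (46.8 CPM), and the CKO libraries together held 18 UMIs in 16 nuclei, with a lowest, median and highest level of 0, 1.33 and 4.99 CPM. The groups did not overlap, and 10 of 10 CKO libraries were below the control. The log2 fold change was -4.01 ± 0.58, with an adjusted p of 0.0342, which ranged from 2.11e-07 to 0.579 over 22 alternatives (14 past the threshold), and DESeq2 gave no adjusted p for this gene. Without CKO replicate 1, 8, 9 or 11 the adjusted p was 0.0600, 0.0630, 0.0956 or 0.0783. CBC nuclei held 416 CPM in the control and 251, 300 and 386 CPM as the lowest, median and highest CKO values, so that the control lay above all 10 there too, with a log2 fold change of -0.42. Rod nuclei showed a contrast of the same kind, not tested, with 174 *Tafa2* UMIs (20.2 CPM) in the control and 0 or 1 in each CKO library, so the control's excess was not limited to RBCs.

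The genes next in order of p did not pass. *Pfkp*, the platelet type of phosphofructokinase, was at 400 CPM in control RBCs and at 707, 1194 and 1479 CPM as the lowest (replicate 7), median and highest (replicate 2) CKO values. *Hk2*, hexokinase 2, was at 31.1 CPM and at 36.9 (replicate 10), 126 and 205 CPM (replicate 5), and *Gm15283*, an unnamed transcript, was at 57.8 CPM and at 114, 342 and 468 CPM. For each of the 3, all 10 CKO libraries were above the control. The log2 fold changes were 1.62 ± 0.27, 2.16 ± 0.37 and 2.51 ± 0.45, with adjusted p of 0.0525, 0.0525 and 0.0722. Of 24 alternatives, 10, 10 and 8 passed, and the lowest adjusted p were 7.21e-18, 4.89e-14 and 1.50e-28. The log2 fold change of *Hk2* ranged from 1.91 with no covariate to 4.14 with nuclei thinned to 500 UMIs. *A2m*, which encodes the protease inhibitor alpha-2-macroglobulin, had 0 UMIs in 572 control nuclei and 732 UMIs in 319 CKO nuclei. Its lowest, median and highest CKO levels were 12.5, 51.6 and 64.6 CPM, at least 36.0-fold higher at the median than the level that 3 UMIs would give in the control (1.43 CPM), with an adjusted p of 0.0986 (1.97e-17 to 0.807 over alternatives). DESeq2 placed all 4 of these genes past the threshold, at adjusted p of 0.0113, 0.000106, 0.0240 and 0.0492.

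In the other direction, *Tmem181a*, a membrane protein gene, was at 187 CPM in control RBCs and at 47.5, 70.4 and 97.8 CPM. *Selenom*, a selenoprotein gene, was at 17.2 CPM (36 UMIs) and at 1.25, 5.18 and 14.9 CPM. *Nav3*, neuron navigator 3, was at 176 CPM and at 25.6, 69.7 and 145 CPM. The control was above all 10 CKO libraries for all 3, and for the unnamed *Gm17167* (29.6 CPM against 2.49 to 11.7 CPM). The log2 fold changes were -1.33, -3.59, -1.32 and -2.13, with adjusted p of 0.0525, 0.0925, 0.246 and 0.246, and in DESeq2 *Tmem181a* alone passed (0.0141), while *Selenom* had no adjusted p there. Of the alternatives, 9, 3, 3 and 1 passed for these genes. The log2 fold change of *Selenom* ranged from -4.68 without nuclei that hold cone bipolar marker UMIs to -1.33 with kit alone. *Tgfbr1* itself was at 49.2 CPM in control RBCs and at 31.4, 41.8 and 53.1 CPM, with 2 of 10 CKO libraries above the control and a log2 fold change of -0.12 ± 0.26 (adjusted p 1).

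Genes of hypoxia and glycolysis were, of the lists looked at, the one with the largest share of genes at an unadjusted p under 0.05 in RBCs. The list holds glucose transporters, glycolytic enzymes and targets of hypoxia-inducible factors. Its 30 members summed to 1736 CPM in control RBCs and to 2419 (replicate 10), 3487 and 4038 CPM (replicate 11) as the lowest, median and highest CKO values, and all 10 CKO libraries lay above the control. Of 27 members tested, 0 passed the threshold in edgeR and 4 passed in DESeq2 (*Pfkfb3*, *Hk2*, *Bnip3* and *Pfkp*). At an unadjusted p under 0.05 in edgeR, 16 of 27 were higher (59.3%) and 0 lower, compared with 3.56% and 1.78% of all genes. The median log2 fold change was 0.91, with 23 of 27 above 0, against 0.00 over all genes. The control lay below all 10 CKO libraries for 13 of 27 members, against 7.29% of all genes tested, and above all of them for 0, against 4.28%.

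Values of single members follow, and no test compared members with each other. Of the enzymes that commit glucose to glycolysis, *Pfkfb3*, whose product activates phosphofructokinase, was at 3.35 CPM (7 UMIs) in control RBCs and at 8.39, 26.9 and 36.8 CPM, with a log2 fold change of 3.20 ± 0.65. *Pfkl*, the liver type of phosphofructokinase, was at 49.2 CPM and at 50.4, 100 and 151 CPM (1.08 ± 0.27), while *Hk1* was at 111 CPM and at 99.8, 147 and 217 CPM (0.13 ± 0.24). *Pdk1*, which turns pyruvate away from the mitochondria, was at 42.5 CPM and at 50.4, 92.2 and 131 CPM (1.19 ± 0.29). The control was below all CKO libraries for *Pfkfb3*, *Pfkl* and *Pdk1* and inside their range for *Hk1*. Log2 fold changes of later enzymes were 1.18 for *Eno1*, 0.87 for *Pgk1*, 0.77 for *Ldha*, -0.02 for *Gapdh* and -0.11 for *Aldoa*. The mitophagy receptor genes *Bnip3* and *Bnip3l* were at 17.7 and 43.5 CPM in the control, with CKO medians of 64.9 and 94.8 CPM and log2 fold changes of 1.79 ± 0.35 and 1.12 ± 0.26, and all 10 CKO libraries were above the control for each. *Vegfa*, the angiogenic factor, was at 69.8 CPM and at 58.9 (replicate 7), 114 and 153 CPM, above the control in 9 of 10 libraries (0.75 ± 0.28, adjusted p 0.756). *Ero1a* was at 0 in the CKO libraries of batch 3, which was counted against another gene annotation than batch 1. Its fold change of 0.91, like all others of the model, rests on batch 1. All of these adjusted p were at or above 0.0525 in edgeR.

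CBC nuclei share the control library with RBC nuclei and are given beside them. In CBCs, edgeR called 0 of 14679 genes, with 650 at an unadjusted p under 0.05 (4.43%), 403 higher (2.75%) and 247 lower (1.68%), and a DESeq2 fit added after the data were seen called 18 (0.123%), 17 higher (0.116%) and 1 lower (0.00681%), with 393 at an unadjusted p under 0.05 (2.68%), 290 higher (1.98%) and 103 lower (0.702%). In CBCs the same 27 members had a median log2 fold change of 0.80, with 22 at an unadjusted p under 0.05 and 0 past the threshold in edgeR (4 in the added DESeq2 fit). Log2 fold changes in RBCs and CBCs were 2.16 and 1.43 for *Hk2*, 1.62 and 1.27 for *Pfkp*, 1.19 and 1.25 for *Pdk1* and 1.79 and 1.49 for *Bnip3*. The test of the difference between the types called 0 of 27 members (5, or 18.5%, at an unadjusted p under 0.05 against 5.28% of all genes, and 0 in DESeq2), with a median difference of 0.07, so a stronger response in RBCs was not shown for any member. In RBCs, CKO replicate 10 had the lowest CKO value of the list sum and of *Hk2*, *Pdk1*, *Bnip3* and *Bnip3l*.

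**Figure D3:**
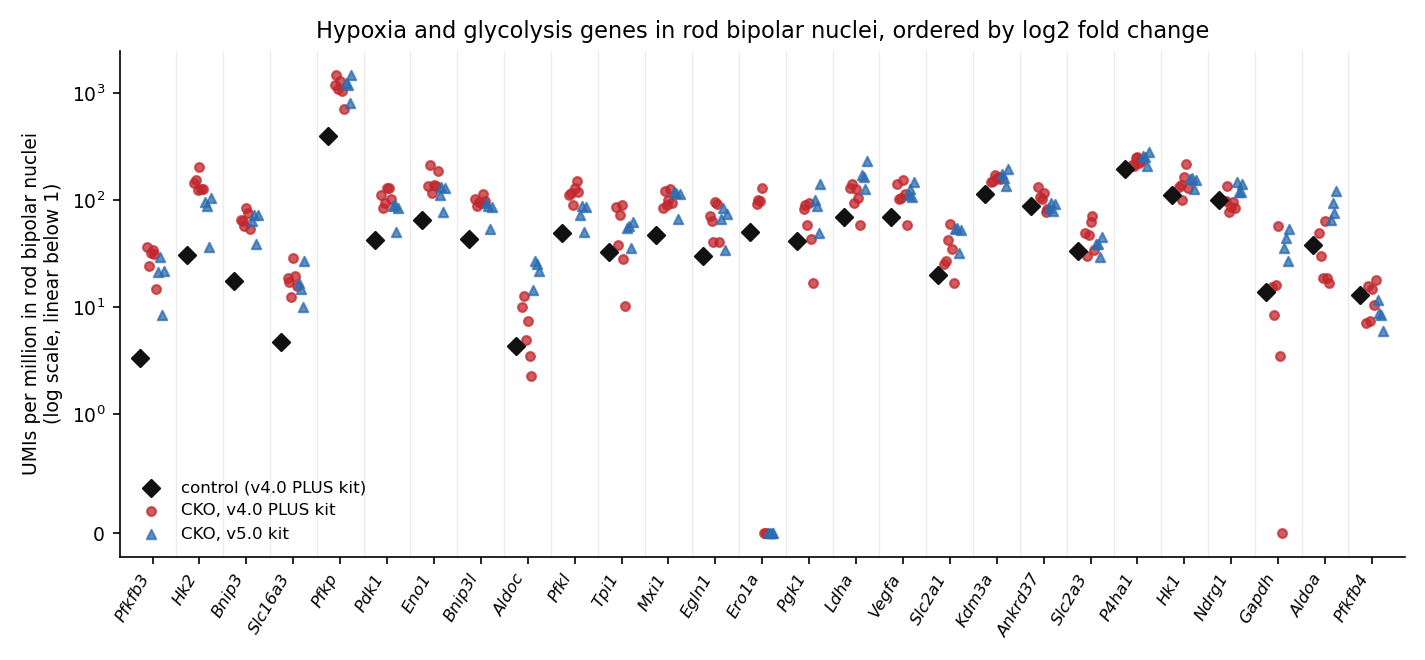
Levels of the 27 tested hypoxia and glycolysis genes in rod bipolar nuclei (CPM, log axis that is linear below 1), 1 point per library by genotype and kit, in order of log2 fold change. The control lies below all 10 CKO libraries for 13 genes, and the values of *Ero1a* at 0 are those of batch 3.

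The stress list was counted in the same way. Of 12 tested, 0 passed in edgeR and 1 in DESeq2 (*Fgf2*), 4 were higher and 0 lower at an unadjusted p under 0.05, and the median log2 fold change was 0.71 with 12 of 12 above 0, against 3.56% higher, a median of 0.00 and 5771 of 11700 above 0 over all genes. The list summed to 255 CPM in control RBCs and to 230 (replicate 7), 524 and 629 CPM, with 9 of 10 CKO libraries above the control. The control was below all 10 for 2 of 12 members, against 7.29% of all genes. *Fgf2*, which encodes a survival factor of retinal neurons, was at 1.91 CPM (4 UMIs) in control RBCs and at 10.2, 29.3 and 43.1 CPM, with a log2 fold change of 3.87 ± 0.84 and an adjusted p of 0.132. *Stat3*, a transcription factor of cytokine signaling, was at 55.9 CPM and at 90.6, 174 and 234 CPM (1.41 ± 0.42, adjusted p 0.494). These are the 2 genes with all 10 CKO libraries above the control. *Edn2* had 0 UMIs in control RBCs and was found in 9 of 10 CKO libraries, at up to 14.2 CPM. In CBC nuclei the log2 fold changes were 2.80 for *Fgf2* and 0.49 for *Stat3*, and the difference between the types did not pass for either (adjusted p 1 and 0.161).

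Other signaling programs had no gene past the threshold. By edgeR, 0 of 4 tested interferon genes, 0 of 7 immediate early genes, 0 of 18 clock genes and 0 of 11 genes of the TGF-beta pathway passed, with 0, 0, 2 and 0 at an unadjusted p under 0.05 (5.33% of all genes) and 0 of each in DESeq2. The 2 clock genes are 11.1% of 18, and the control lay below all CKO libraries for 3 clock genes (*Per1*, *Per2*, *Nr1d1*) and above all for 1 (*Npas2*), against 7.29% and 4.28% of all genes. In the TGF-beta list the control lay below all CKO libraries for 2 of 11 genes (*Smad2*, *Smurf2*) and above all for 0, and in the interferon and immediate early lists for 0 and 0. Their median log2 fold changes were 0.11, 0.22, -0.01 and 0.06. The interferon list summed to 76.5 CPM in control RBCs and to 55.5, 83.3 and 92.3 CPM in the CKO libraries, with 3 of its genes (*Ifit1*, *Ifit3*, *Mx2*) at 0 in every library. *Tgfb2*, the most abundant gene of the TGF-beta list, was at 420 CPM in control RBCs and at 314, 398 and 509 CPM, and its mean log2 ratio of RBC over CBC levels was 1.58.

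The difference between the genotype effects of RBCs and CBCs was tested with the library as a block. Of 14133 genes, 17 passed in edgeR (0.12%), 14 with a higher effect in RBCs (0.0991%) and 3 with a lower one (0.0212%), and DESeq2 called 2 (0.0142%), 1 in each direction (0.00708%). At an unadjusted p under 0.05 edgeR had 746 genes (5.28%), 472 higher (3.34%) and 274 lower (1.94%), and DESeq2 had 235 (1.66%), 184 higher (1.3%) and 51 lower (0.361%). Both genes that passed in RBCs alone are among the 17. Of the 17 genes, 16 had levels in RBCs below those in CBCs by a log2 ratio under -1, and 13 under -3, with a median of -5.32 against -0.05 over all genes tested. Most of these genes were thus high in cone bipolar cells and had few UMIs in RBCs. The count was 29, 26 and 37 without CKO replicates 1, 3 and 10, and it was 51 within batch 1.

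The 5 genes of smallest p with a higher effect in RBCs were *Lrrc4c* (difference in log2 fold change 2.08 ± 0.27, adjusted p 0.000116), *Adgrl3*, an adhesion receptor of the latrophilin family (3.46, adjusted p 0.00383), *Il1rapl2*, of the interleukin-1 receptor family (3.66, adjusted p 0.00383), *Lsamp*, a cell adhesion gene (2.88, adjusted p 0.00562), and *Gria2*, an AMPA receptor subunit (3.09, adjusted p 0.00592). *Adgrl3* was at 2.39 CPM (5 UMIs) in control RBCs and at 7.45, 18.7 and 39.9 CPM, compared with 837 CPM in control CBCs. *Il1rapl2* was at 1.43 CPM (3 UMIs) and at 5.47, 14.7 and 30.6 CPM, compared with 886 CPM. *Gria2* was at 2.87 CPM (6 UMIs) and at 3.48, 18.7 and 31.4 CPM, compared with 692 CPM. For these 3 genes all 10 CKO libraries were above the control in RBCs, and for *Lsamp* 8 of 10 were, at 10.5 CPM in the control and 5.25 to 107 CPM in the CKO libraries. *Mgat4c*, *Pcdh9*, *Brinp3*, *Slc24a3*, *Cdh20*, *Chrm3*, *Kctd8*, *P4ha2* and *Unc13c* also passed. Of these, *Mgat4c*, *Kctd8* and *P4ha2* had 0 UMIs in control RBCs, and at the CKO median they were at least 5.83-, 4.80- and 6.05-fold above the level of 3 UMIs.

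The 3 genes with a lower effect in RBCs were *Tafa2* (-3.66 ± 0.36, adjusted p 6.96e-07), *Maml2*, a coactivator of Notch (-1.16, adjusted p 0.0171), and *Wdr88* (-10.22, adjusted p 0.0238). *Maml2* was at 91.3 CPM in control RBCs and at 21.0, 51.5 and 93.1 CPM, with 1 of 10 CKO libraries above the control. *Wdr88* had 26 UMIs in 10 control nuclei, 14 of them in a single nucleus, and in the CKO libraries it was found in replicate 5 alone, at 4.72 CPM. CKO replicates 1 to 3, which set the effect, held 0 UMIs of it in RBCs. The -10.22 is thus a fitted value against 0 counts, and its size was not measured. In batch 3, counted against another gene annotation than batch 1, it was at 0 in RBC, CBC and rod nuclei alike. In CBC nuclei it was at 0.756 CPM in the control, at 4.58, 0.498 and 1.35 CPM in CKO replicates 1 to 3 and at 4.61 CPM in replicate 5. *Nav3* and *Grin2b*, next in order, did not pass (-1.17 and -0.83, adjusted p 0.0541 and 0.0735).

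**Figure D4:**
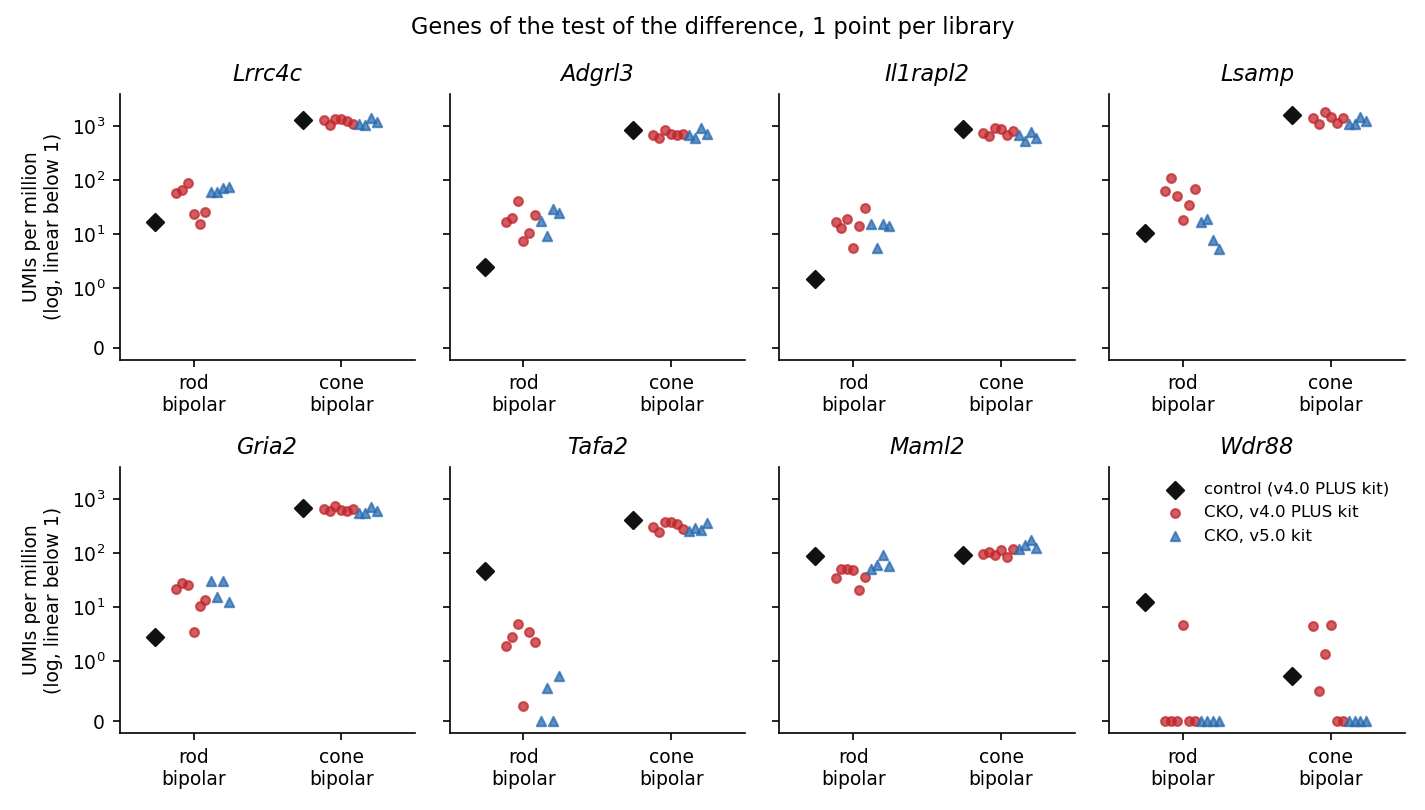
Levels of 8 genes past the threshold of the test of the difference, in rod bipolar and cone bipolar nuclei (CPM, log axis that is linear below 1), 1 point per library by genotype and kit. In rod bipolar nuclei the control lies at the low end for *Lrrc4c*, *Adgrl3*, *Il1rapl2* and *Gria2* and at the high end for *Tafa2* and *Wdr88*, while in cone bipolar nuclei the control of *Tafa2*, at 416 CPM, also lies above all 10 CKO libraries (251 to 386 CPM).

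Because most of these genes were higher in cone bipolar cells, markers of that type were counted in RBC nuclei. The 14 cone bipolar markers summed to 547 CPM in control RBCs and to 341 (replicate 6), 477 and 793 CPM (replicate 10) in the CKO libraries, with 3 of 10 above the control. *Grik1* was the most abundant, at 426 CPM in the control and 271 to 645 CPM in the CKO libraries, and *Vsx1*, *Cck*, *Col11a1* and *Chrm2* were at 0 in the control. For the 9 of these markers that were at least 10 times higher in CBC nuclei, a UMI was present in 3.32% of control RBC nuclei (19 of 572) and in 1.55% (replicate 6), 5.63% and 9.38% (replicate 11) as the lowest, median and highest CKO values, compared with 84.3% of control CBC nuclei. CKO replicates 5, 6 and 7, which had *Lrrc4c* levels near the control, had shares of 3.89%, 1.55% and 5.45%, and the other CKO libraries had 4.74% to 9.38%. These shares are not matched for depth, with a median of 1870 UMIs per RBC nucleus in replicate 6 and 7482 in replicate 11. In rod nuclei, as background at lower depth, the share was 1.33% in the control and 0%, 0.644% and 2.30% as the lowest, median and highest CKO values. Leaving out the 203 RBC nuclei with such a UMI, an alternative chosen after seeing the data, gave 0 genes past the threshold in RBCs (edgeR) and 1 in the test of the difference. The log2 fold changes were then 2.14 for *Lrrc4c* (adjusted p 0.304) and -5.40 for *Tafa2*, and they were 1.64 for *Pfkp* and 2.30 for *Hk2* (adjusted p 0.125 for each). The 9 markers were picked by their levels in these same data, and the share of RBC nuclei left out was 5.63% at the CKO median and 3.32% in the control. A smaller difference for genes high in CBCs can therefore follow from the selection itself. Among the 17 genes, the difference from CBCs was smaller without the 203 nuclei for 14 and larger for 3 (*Tafa2*, *Lrrc4c* and *Brinp3*), and its sign was that of the whole set for all 17. It went from 3.46 to 2.13 for *Adgrl3*, from 3.66 to 3.02 for *Il1rapl2*, from 2.88 to 2.36 for *Lsamp*, from 3.09 to 2.83 for *Gria2* and from 2.08 to 2.14 for *Lrrc4c*. The gene that passed was *Tafa2* (-5.08). Of the other 16, *Wdr88* was at 12.4 CPM in control RBCs and 0.756 CPM in control CBCs, and *Maml2* was at 91.3 and 94.9 CPM. The part of cone bipolar nuclei or RNA in these 16 calls was not tested.

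Markers of other cell types were also counted in RBC nuclei. The 10 rod markers summed to 5040 CPM in control RBCs and to 4537, 5400 and 6947 CPM in the CKO libraries, 7 of 10 above the control, with *Sag* the most abundant and none at 0. The same markers averaged 5368 CPM in RBCs, 5943 CPM in CBCs and 22116.5 CPM in rods. The 8 cone markers summed to 199 CPM and to 149, 316 and 467 CPM, 8 of 10 above the control, with *Arr3* the most abundant. The 9 Müller glia markers summed to 43.0 CPM in the control, to 11.3 to 58.3 CPM in v4.0 PLUS CKO libraries and to 118 to 147 CPM in v5.0 libraries, led by *Glul*, with *Dkk3* at 0 in the control. Amacrine, horizontal and ganglion cell markers summed to 11.0, 9.56 and 5.26 CPM in the control, with CKO medians of 26.4, 16.7 and 14.5 CPM. Immune markers summed to 25.8 CPM, with a CKO median of 24.2 CPM, and endothelial markers to 11.9 CPM, with a CKO range of 8.70 to 38.4 CPM and *Cldn5* at 0 in all libraries. Pericyte, pigment epithelium and astrocyte markers had CKO medians of 1.81, 3.42 and 1.93 CPM. The hypoxia and glycolysis sum was 2483 to 4007 CPM in v4.0 PLUS CKO libraries and 2419 to 4038 CPM in v5.0 libraries. By cell type, that list averaged 4326.5 CPM in Müller glia, the highest of the types, and 3210 CPM in RBCs. The part of RNA from Müller glia, cones and other cell types in the genotype differences was not tested.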

How the data were processed

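The deposited counts are integer UMIs for each nucleus and gene, made by the authors, who aligned reads with PIPseeker 3.3.0, removed empty droplets and background with CellBender 0.3.2 and doublets with SOLO, and cleared mixed nuclei by hand. The labels name mm10 and the methods GRCm39. UMIs of all RBC nuclei of a library were summed, CPM is relative to that sum, and libraries with at least 20 RBC nuclei were fitted in edgeR 4.0.16 (quasi-likelihood F test, two-sided, TMM, filterByExpr, Benjamini-Hochberg threshold 0.05) with batch, kit and genotype as terms. The difference between RBCs and CBCs was an interaction with the library as a block. DESeq2 1.42.0 on R 4.3.3 was the other tool, and matplotlib 3.10.9, pandas 2.3.3, scipy 1.17.1 and numpy 2.4.6 under Python 3.11.15 made the rest. Shares were compared by exact permutation of libraries. Log2 ratios of RBC over CBC added 0.5 UMIs. Intervals and floors of 3 UMIs cover counting error only. Genes named are, in RBCs, up to 10 that passed in each direction, or the 5 of smallest p where fewer than 5 passed, in the test of the difference the 5 in each direction, the 15 highest and lowest against CBC, members of lists, and marker genes. Other genes named were chosen after their values were seen. The lists and members were chosen with earlier results of the study known.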

Additional observations from a re-analysis of the deposited data

Results flagged for a closer look

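In 51 groups of CKO libraries, a library far from all others was looked for, which by chance occurs in about 1 group in 20, and 3 were found. *Nav3* was at 145 CPM in CKO replicate 10, *Bnip3l* was at 53.7 CPM in CKO replicate 10, and the endothelial markers summed to 38.4 CPM in CKO replicate 6. In the test of the difference between the CKO effects in RBCs and in CBCs (log2, edgeR), 8 named genes passed: *Lrrc4c* at 2.08, *Adgrl3* at 3.46, *Il1rapl2* at 3.66, *Lsamp* at 2.88, *Gria2* at 3.09, *Tafa2* at -3.66, *Maml2* at -1.16 and *Wdr88* at -10.22. Of the *Wdr88* UMIs in the control, 14 of 26 came from a single nucleus. RBCs of CKO replicates 1 to 3 held 0 *Wdr88* UMIs, so its -10.22 is a fitted value whose size was not measured. The cause of each was not tested.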

How the results depend on the processing

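The number of genes past the threshold in RBCs, 2 in edgeR, was 21 with DESeq2, 16 in batch 1 alone, 103 without the filter on low counts, 4 with nuclei thinned to 500 UMIs, 5 with genes of both annotations and 5 without chromosomes X and Y. It was 0 with kit alone, batch alone or no covariate, and it ranged from 0 to 13 with a CKO library left out. In the test of the difference between RBCs and CBCs the number, 17, was 2 with DESeq2, 1 without batch and kit, 51 in batch 1 alone and 87 without the filter, and it ranged from 16 to 37 with a CKO library left out. Without the RBC nuclei that hold cone bipolar marker UMIs, an alternative chosen after seeing the data, the numbers were 0 in RBCs and 1 in the test of the difference. In CBCs the number, 0 in edgeR, was 18 with DESeq2, also chosen after seeing the data.

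The RBC share of all nuclei, CKO minus control, turned from -0.276 to 0.193 percentage points with libraries of at least 500 nuclei and to 0.0973 in batch 1 alone, and it ranged from -0.392 to 0.193 with a CKO library left out. It was -0.638 with nuclei of at least 1000 UMIs and -0.755 with nuclei other than rods when libraries under 500 nuclei were left out, both chosen after seeing the data. The mean log2 ratio of RBC over CBC for *Trpm1*, 2.80, was 2.51 in v5.0 libraries alone. DESeq2 gave no adjusted p for *Tafa2* and *Selenom*. For the 21 named genes, 412 alternatives gave the same call, 68 added a call, 16 removed it, and 0 turned a fold change that had passed. The cause was not tested.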

Other observations

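Genes given here were chosen after the values were seen. *Xist*, of the sex chromosome list, was at 10516 CPM in control RBCs, at 10020, 10090 and 8444 CPM in CKO replicates 1, 2 and 7, at 28.7 CPM in replicate 3 and lower still in the others, so it differed between libraries of the same genotype. *Uty*, of the Y chromosome, was at 2.39 CPM in the control and at most at 0.956 CPM in replicates 1, 2 and 7, compared with 272 to 366 CPM in the other CKO libraries, so in these genes the control resembled 3 of 10 CKO libraries. By these genes the control and those 3 libraries had the pattern of female mice, and the other CKO libraries that of male mice. Replicate 3, of the male pattern, is among the libraries that set each fold change. The fits had no term for sex, and its part in the genotype differences was not tested. *Hbb-bs*, a hemoglobin gene, had 0 UMIs in control RBCs and at the CKO median was at least 27.6-fold above the level of 3 UMIs, with up to 127 UMIs in a single nucleus.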
